A study of Mus musculus with 4 samples.

Results

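The BCL2 family decides whether the outer membrane of mitochondria stays closed, and 10 of its genes, 7 that promote cell death and 3 that oppose it, were examined among the 56493 genes of a count table from sorted mouse retinal cells. The members were taken by gene name: Bax and Bak1, whose proteins form pores in the membrane, the BH3-only genes Bbc3, Bcl2l11, Bid, Hrk and Pmaip1, whose proteins set those pores off, and Bcl2, Bcl2l1 and Mcl1, whose proteins hold both kinds in check. All 10 were found, 1 row each, and all 10 passed the filter on low counts. Hrk passed only through the MCS libraries and Pmaip1 only through the CrAT libraries, so both were tested only because 1 group was high.

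The cells came from the retina of wild-type mice and are labelled as retinal ganglion cells (RGC), neurons that send their axons through the optic nerve. Every group received an adeno-associated virus (AAV2) injected into the vitreous of the eye, followed a month later by optic nerve crush, and cells were then sorted by fluorescence. Titles of both groups also carry the tag NCd8, which is not spelled out, nor is MCS. The virus was AAV2.CrAT, made to overexpress carnitine acetyltransferase, in 2 libraries, and AAV2.MCS in the other 2, and the comparison asks whether the cell death genes differ between them. Both groups thus share the virus capsid and the crush. The labels give no age, sex, time from crush to sorting, promoter of the vector or number of animals behind a library, and nothing says that the replicates are separate animals, so a p-value here speaks of the spread between 4 libraries, which may be technical.

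In the intrinsic pathway of apoptosis, BAX and BAK1 open the mitochondrial membrane, cytochrome c leaves and caspases are activated. BCL2, BCL-xL (the product of Bcl2l1) and MCL1 bind and restrain BAX, BAK1 and the BH3-only proteins. Ganglion cells whose axons are crushed are known to die largely through BAX, with JUN and its upstream kinases acting before it on the transcription of BH3-only genes.

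Values are given with replicate 1 before replicate 2 throughout. The libraries held 24494253 to 27097438 counts. Crat itself was 72.5 and 49.9 CPM (counts scaled to library size with edgeR's TMM factors) with CrAT and 38.3 and 47.7 CPM with MCS, a log2 fold change of 0.51 (SE 0.33, edgeR quasi-likelihood test, adjusted p = 1). Markers of ganglion cells were present but few, summing to 141 to 310 CPM over 10 genes, with Pou4f2 at 0 counts in 3 of 4 libraries, against 22784 to 42991 CPM for 8 rod markers. Of the ganglion sums Isl1 alone held 53.9 to 127 CPM. These sums are not per length. In bulk libraries fewer cells of a type cannot be told apart from less RNA per cell. Markers of Mueller glia summed to 7954 and 6172 CPM with CrAT, 13052.5 and 11638 CPM with MCS. All 8 had a negative log2 fold change, while 50.6% of all genes tested had a positive one. The groups overlapped for Slc1a3, Aqp4 and Dkk3 of this list. Astrocyte markers summed to 499.5 and 352 CPM with CrAT, 738 and 532 CPM with MCS, and markers of microglia and macrophages summed to only 8.80 to 14.3 CPM. MCS replicate 1 stood apart in the sum of 5 nuclear retained RNAs, 1341 CPM there and 352 to 430 CPM in the other libraries. Most of it was Malat1, at 1278 CPM. Neat1 stood out there too, while Meg3 was close to its level in both replicate 2 libraries, and Miat and Xist were highest in CrAT libraries. In edgeR 0% of 19638 genes tested passed an adjusted p of 0.05 and 4.15% had an unadjusted p under 0.05, while DESeq2 called 49 genes, none of them a member.

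Per exon length, Bcl2l1 and Bax were the most abundant of the 10 members, and Hrk had the lowest mean. In FPKM (counts per kilobase of exon, scaled to library size by the authors) over the 4 libraries, the level of Bcl2l1 was 26.5 ± 3.34, of Bax 20.05 ± 1.43, of Mcl1 10.1 ± 0.403 and of Bid 4.49 ± 1.20 (SD, n = 4 each). This order of the first 4 members, and their place above Bcl2l11, held in each of the 4 libraries. The next levels in FPKM were Bcl2l11 at 1.20 ± 0.759, Bbc3 at 1.07 ± 0.268 and Bcl2 at 0.841 ± 0.605, which lay within each other's spread. Pmaip1 at 0.314 ± 0.369, Bak1 at 0.292 ± 0.256 and Hrk at 0.107 ± 0.101 FPKM came last, and Pmaip1 lay above Bak1 in only 1 of 4 libraries. In both MCS libraries Pmaip1, at 0.0897 and 0.108 FPKM, lay below Hrk, at 0.176 and 0.208 FPKM.

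**Figure D1:**
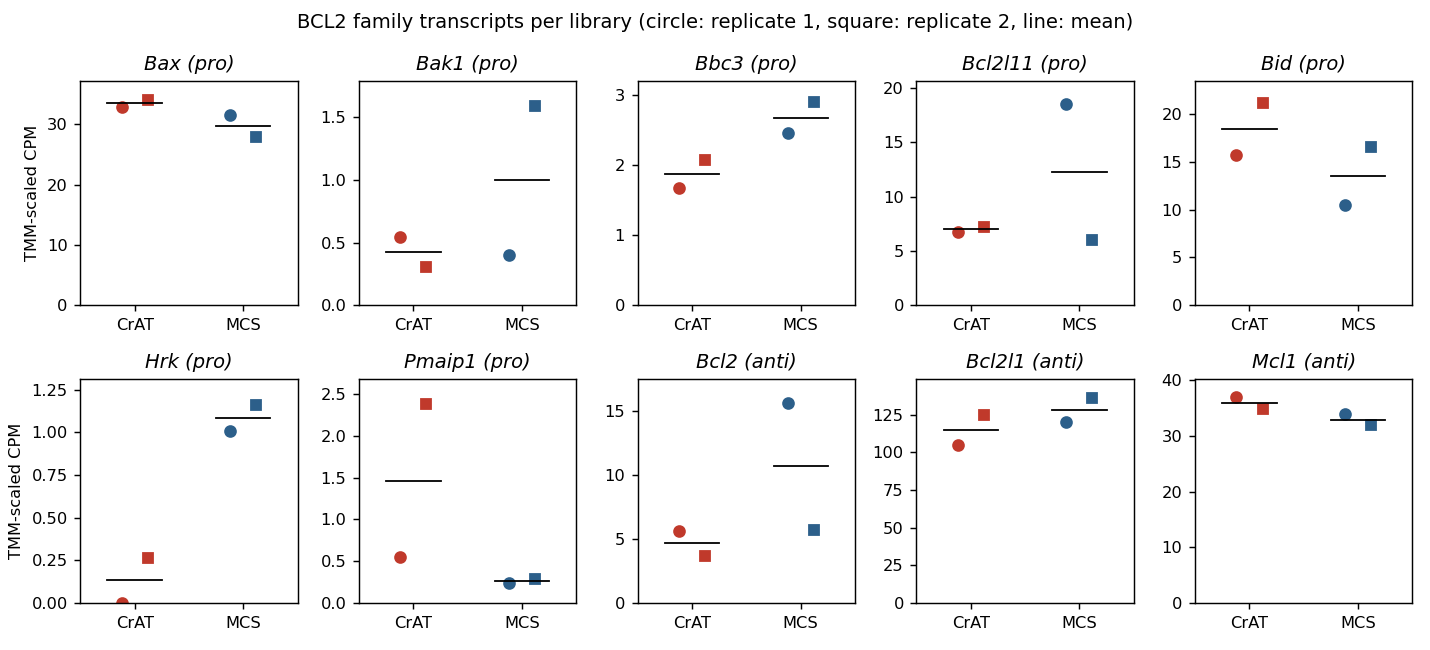
TMM-scaled CPM of the 10 members in each library, with 1 panel and 1 linear scale per gene starting at 0. Circles are replicate 1, squares replicate 2 and lines the means of the CrAT and MCS groups. Bcl2l11 and Bcl2 stand out in MCS replicate 1, Bak1 in MCS replicate 2 and Pmaip1 in CrAT replicate 2.

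Between the vectors, none of the 10 members passed an adjusted p of 0.05 in edgeR, although the groups did not overlap in CPM for 6 of them (31.6% of all genes tested). The abundant members, Bax, Bcl2l1 and Mcl1, varied by at most 1.299-fold over all 4 libraries. Among the scarce ones, Hrk was lower and Pmaip1 higher in both CrAT libraries, and Bcl2, Bcl2l11 and Bak1 had a high value in a single MCS library.

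Of the effectors, Bax was near constant and Bak1 was scarce. Positions of genes are those of the count table, which names no build and differs from GRCm38. Bax (chromosome 7, 45111121 to 45116322, minus strand) was 32.9 and 34.1 CPM with CrAT, 31.6 and 28.0 CPM with MCS. The CrAT values were above both MCS values in CPM, but not in FPKM, where CrAT replicate 1 at 20.26 lay below MCS replicate 1 at 20.35. The log2 fold change, CrAT over MCS, was 0.17 (SE 0.30, edgeR, adjusted p = 1), and the highest library exceeded the lowest 1.22-fold. Bak1 (chromosome 17, 27238784 to 27247983, minus strand) had 13 and 8 counts with CrAT, 10 and 44 with MCS. Only MCS replicate 2 was high, and the log2 fold change of -1.24 (SE 0.93, edgeR, adjusted p = 1) was 0.074 without it. Counted in FPKM, Bax exceeded Bak1 96.1-fold and 184-fold in CrAT and 120-fold and 26.9-fold in MCS. Exons of Bak1 share bases with 2 genes on the opposite strand, 18.2% of its exon length with Ggnbp1 and 7.35% with Gm50253. Ggnbp1 held 16 to 34 counts and Gm50253 252 to 330, more than Bak1 in every library. Exons of Bax share 12.2% with Gm45808 on the same strand, which held 277 to 425 counts. The library kit does not mark strand, so reads from a gene and an overlapping one cannot be told apart there.

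The BH3-only genes held the members that differed most between groups in fold, all from few counts. Hrk, which encodes harakiri, a BH3-only protein of neurons (chromosome 5, 118302713 to 118327543, plus strand), had 0 and 7 counts with CrAT, 25 and 32 with MCS. Exact Poisson intervals of 95%, which cover counting error only, reached from 2.81 to 14.4 for the 7 counts and from 16.2 to 36.9 for the 25. The CrAT values were below both MCS values, at 0 and 0.264 CPM against 1.01 and 1.16 CPM, and a floor of 3 counts is 0.126 CPM in the library with 0. The log2 fold change was -2.96 (SE 1.29, edgeR, adjusted p = 1, unadjusted p = 0.0596). Against that floor in CrAT replicate 1 alone, the MCS mean was 8.61-fold higher. This is not a lower bound, since the two-sided interval for a count of 0 reaches 3.69 counts, above the floor. Without CrAT replicate 1 the log2 fold change was -2.02. Pmaip1, which encodes NOXA, a BH3-only protein that binds MCL1, went the other way. It had 13 and 63 counts with CrAT, 6 and 8 with MCS, or 0.545 and 2.38 CPM against 0.241 and 0.290 CPM. The log2 fold change was 2.44 (SE 0.94, edgeR, adjusted p = 1, unadjusted p = 0.0397). Most of this came from CrAT replicate 2, without which it was 1.04, and the Poisson intervals of the 13 counts (6.92 to 22.2) and of the 8 counts (3.45 to 15.8) overlap. CrAT replicate 2 was also the library with the highest amacrine marker sum, 2192 CPM over 7 genes, all with a positive log2 fold change, against 697 to 1336 CPM in the others. The ganglion marker sum was highest there too, at 310 CPM against 141 to 209 CPM, with 7 of 9 tested genes positive. The part of either in the Pmaip1 value was not tested.

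The other BH3-only genes rested on more counts. Bbc3, which encodes PUMA, a BH3-only protein induced by p53 (chromosome 7, 16042318 to 16052130, plus strand), was 1.68 and 2.07 CPM with CrAT, 2.45 and 2.90 CPM with MCS. The CrAT values were below both MCS values, from 40 and 55 counts against 61 and 80, with a log2 fold change of -0.51 (SE 0.50, edgeR, adjusted p = 1). Bcl2l11, which encodes BIM, a BH3-only protein that binds every anti-apoptotic member (chromosome 2, 127967958 to 128004467, plus strand), was 6.79 and 7.24 CPM with CrAT, 18.5 and 6.01 CPM with MCS. MCS replicate 1 alone was high. The log2 fold change of -0.80 (SE 0.59, edgeR, adjusted p = 1) turned to 0.22 without MCS replicate 1. Bid, whose protein is cleaved by caspase 8 and so links death receptors to mitochondria (chromosome 6, 120868891 to 120893814, minus strand), was 15.8 and 21.2 CPM with CrAT, 10.5 and 16.6 CPM with MCS. The groups overlapped, replicate 2 was 1.35-fold above replicate 1 in CrAT and 1.57-fold in MCS, and the log2 fold change was 0.45 (SE 0.40, edgeR, adjusted p = 1). Bid was the most abundant BH3-only member in FPKM, with 70.7% and 68.1% of their sum in CrAT and 44.4% and 65.8% in MCS. Exons of Bid share 628 bases, 17.7% of their length, with Bcl2l13 on the opposite strand, which held 1406 to 1730 counts. Counts of both can therefore hold reads of the other.

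Promoter windows, from 250 bases before to 50 after a start site, were matched for 9 of 10 members, 14 windows in all (RefSeq, build GRCm38.p6). They were searched on both strands for the letters bound by factors that act on BH3-only genes: AP-1 (TGANTCA), CRE (TGACGTCA), an ATF-type octamer (TGATGTAA), FOXO (GTAAACA) and the p53 half-site. A match was found in 1 window each of 4 pro-apoptotic members, and in none of the windows of the 3 anti-apoptotic members, which had fewer windows. The share of all windows with a match to any of the patterns was not computed, so no contrast between the classes is drawn. The 4 windows are shown 5′ to 3′ on the gene's strand with the match in capitals, since they are the only windows with a match. Each held 1 match, so no matches overlapped. They are Hrk at chr5:118169514-118169813 (plus strand), Bcl2l11 at chr2:128125788-128126087 (plus strand, the first of its 2 windows), Bbc3 at chr7:16310011-16310310 (plus strand, the second of its 3 windows) and Bax at chr7:45466849-45467148 (minus strand).
Hrk: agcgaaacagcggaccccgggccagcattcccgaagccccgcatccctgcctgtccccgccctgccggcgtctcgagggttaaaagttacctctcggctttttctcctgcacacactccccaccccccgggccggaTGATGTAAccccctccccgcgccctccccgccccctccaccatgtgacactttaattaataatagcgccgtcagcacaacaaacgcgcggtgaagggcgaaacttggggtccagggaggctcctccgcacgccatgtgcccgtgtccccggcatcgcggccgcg
Bcl2l11: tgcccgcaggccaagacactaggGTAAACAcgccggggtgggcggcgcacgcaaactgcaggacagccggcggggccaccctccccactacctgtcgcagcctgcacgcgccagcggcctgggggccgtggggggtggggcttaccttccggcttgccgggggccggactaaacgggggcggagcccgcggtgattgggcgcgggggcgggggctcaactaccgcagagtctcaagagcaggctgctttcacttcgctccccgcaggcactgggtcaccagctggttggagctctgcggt
Bbc3: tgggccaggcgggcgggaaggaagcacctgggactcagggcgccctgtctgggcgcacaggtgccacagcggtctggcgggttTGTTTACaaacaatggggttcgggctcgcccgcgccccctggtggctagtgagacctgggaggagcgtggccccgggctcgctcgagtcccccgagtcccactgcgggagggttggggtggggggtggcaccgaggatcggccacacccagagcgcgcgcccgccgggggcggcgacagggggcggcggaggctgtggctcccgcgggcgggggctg
Bax: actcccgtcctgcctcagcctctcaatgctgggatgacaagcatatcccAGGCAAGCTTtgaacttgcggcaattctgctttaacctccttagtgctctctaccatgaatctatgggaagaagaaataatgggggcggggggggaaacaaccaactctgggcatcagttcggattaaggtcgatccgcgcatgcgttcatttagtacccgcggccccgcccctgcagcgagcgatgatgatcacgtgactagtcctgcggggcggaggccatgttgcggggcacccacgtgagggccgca
Counting the start site as 0, the ATF-type octamer of Hrk reaches from -114 to -107, the FOXO letters of Bcl2l11 from -227 to -221 and those of Bbc3, on the reverse strand, from -167 to -161, and the p53 half-site of Bax from -201 to -192. Over all 32851 windows of this length in the table, 1.10% held the ATF-type octamer, 3.65% the FOXO letters, 8.36% a p53 half-site, 7.81% AP-1 and 1.79% CRE. A match describes letters in the window and shows no binding.

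Among the anti-apoptotic members, Bcl2l1 and Mcl1 were near constant. Bcl2l1, whose main product BCL-xL is the abundant survival protein of adult neurons, was 104.9 and 124.9 CPM with CrAT, 120.5 and 136.3 CPM with MCS (chromosome 2, 152622588 to 152673648, minus strand). The groups overlapped, with a log2 fold change of -0.16 (SE 0.28, edgeR, adjusted p = 1). Counts per gene do not separate its long form from the short, pro-apoptotic splice form. Mcl1, a short-lived survival protein (chromosome 3, 95566099 to 95570487, plus strand), was 37.1 and 34.9 CPM with CrAT, 33.9 and 32.0 CPM with MCS. The CrAT values were above both MCS values by a narrow margin, and the log2 fold change was 0.13 (SE 0.29, edgeR, adjusted p = 1). Of all 10 members Mcl1 varied least, by 1.16-fold from the lowest to the highest library.

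Bcl2 differed more (chromosome 1, 106465908 to 106642004, minus strand). It was 5.61 and 3.70 CPM with CrAT, 15.6 and 5.72 CPM with MCS. The CrAT values were below both MCS values, but CrAT replicate 1 and MCS replicate 2 were nearly level. The log2 fold change of -1.20 (SE 0.59, edgeR, adjusted p = 1, unadjusted p = 0.0887) was -0.30 without MCS replicate 1 and -1.74 without MCS replicate 2. Exons of Bcl2 share 6.09% of their length with D630008O14Rik on the opposite strand, which held 16 to 61 counts, most in MCS replicate 1. Bcl2 and Bcl2l11 were the 2 members of the 10 with their highest level in MCS replicate 1, as were 27.3% of all genes tested. Another 4, Bak1, Bbc3, Hrk and Bcl2l1, were highest in MCS replicate 2 (28.2% of genes tested), 3, Bax, Bid and Pmaip1, in CrAT replicate 2 (21.9%), and Mcl1 in CrAT replicate 1 (22.6%). MCS replicate 1 also held Malat1, a nuclear retained RNA, at 1278 CPM against 307 to 393 CPM in the others. The part of this in the values of Bcl2 and Bcl2l11 was not tested. Nor was that of Mueller glia, whose marker sum lay higher in both MCS libraries. The groups did not overlap for 5 of these 8 markers, all with CrAT lower. Over all genes tested the share was 31.6%, 16.6% with CrAT lower.

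**Figure D2:**
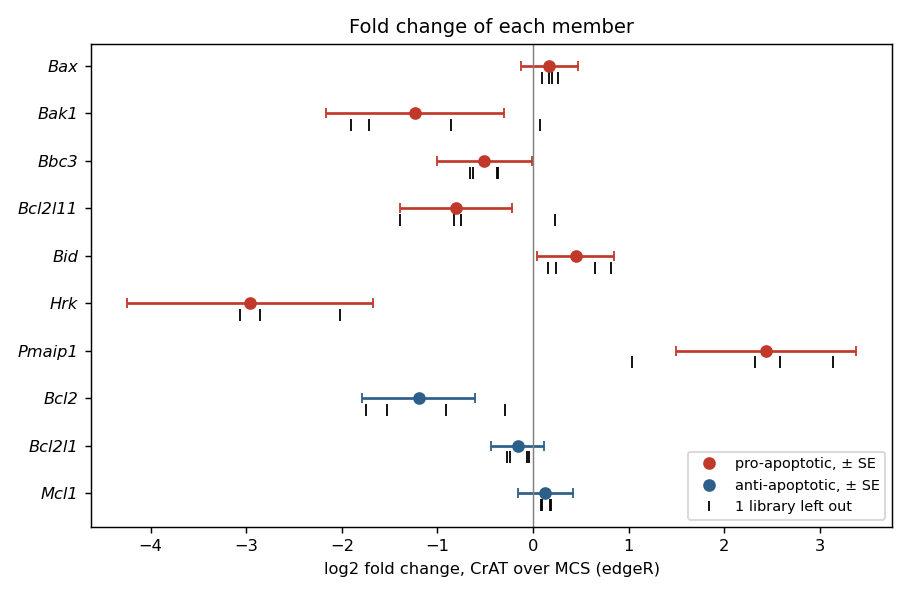
Log2 fold change of each member, CrAT over MCS, from edgeR. Points with bars are the value over all 4 libraries ± SE, and ticks below them the values with 1 library left out, except that for Hrk without CrAT replicate 2, where the remaining CrAT library held 0 counts. Ticks of Bak1 and Bcl2l11 lie on both sides of 0.

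Read as classes, the members did not move together. Of the 7 pro-apoptotic members 3 had a positive and 4 a negative log2 fold change, with a median of -0.51, and of the 3 anti-apoptotic members 1 was positive and 2 were negative, with a median of -0.16. Over all genes tested 50.6% were positive and the median was 0.0075. The pro-apoptotic median was the value of Bbc3. It turned to 0.16 without MCS replicate 1 and 0.074 without MCS replicate 2. No member passed the threshold in edgeR, in DESeq2 or in limma on FPKM. Only Pmaip1 had an unadjusted p under 0.05 in the reported edgeR fit, against 4.15% of genes tested, 1.28% with CrAT higher. With no filter on low counts edgeR gave 3 such members, Pmaip1, Hrk and Bcl2. The groups did not overlap in CPM for 6 of 10 members, 3 with CrAT above (Bax, Pmaip1 and Mcl1) and 3 with CrAT below (Bbc3, Hrk and Bcl2), against 31.6% of all genes tested, 15% above and 16.6% below. In FPKM it was 5 of 10, without Bax, against 31.3%. Hrk and Pmaip1 count among these. Each passed the filter only through its higher group, so their lack of overlap is not independent of the filter. A log2 fold change of at least 1 in size was found for Bak1, Hrk, Pmaip1 and Bcl2, against 10% of genes tested, none of them above 389 counts in a library.

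The summed levels of the classes compare death-promoting with opposing transcripts of the 10 members in a library, not of the whole family. In FPKM the 7 pro-apoptotic members summed to 26.5 and 30.3 with CrAT and 27.3 and 26.0 with MCS, and these values overlapped. The 3 anti-apoptotic members summed to 33.3 and 37.6 in CrAT and 38.5 and 40.5 in MCS. The anti-apoptotic sum was the greater in every library. This order and the ratios below hold for these members only. Family genes outside the sums include the pro-apoptotic Bad at 7.70 to 15.6 FPKM and Bok at 3.55 to 11.3 FPKM. The anti-apoptotic Bcl2l2, at 2.79 to 5.77 FPKM, is also outside them. The ratio of the sums, pro over anti, was 0.797 and 0.807 in CrAT and 0.710 and 0.642 in MCS, or 0.802 ± 0.00652 against 0.676 ± 0.0480 (SD, n = 2 each). The CrAT values were above both MCS values. With 2 libraries against 2 the smallest two-sided p of an exact permutation test is 0.333, so no test of the ratio is given. Bax over Bcl2l1, the most abundant gene of each class, was 0.913 and 0.795 in CrAT and 0.763 and 0.597 in MCS. With these genes left out, pro over anti was 0.566 and 0.836 in CrAT and 0.590 and 0.776 in MCS, which overlap. The BH3-only members alone over the anti-apoptotic sum were 0.182 and 0.231 in CrAT and 0.176 and 0.178 in MCS, apart by a narrow margin. The ratio thus did not separate the groups once both Bax and Bcl2l1 were left out, and did with only the effectors left out. Bax made up 69.6% to 76.3% of the pro-apoptotic sum and Bcl2l1 66.6% to 74.9% of the anti-apoptotic sum, while Bcl2 made up 1.07% to 4.51%.

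**Figure D3:**
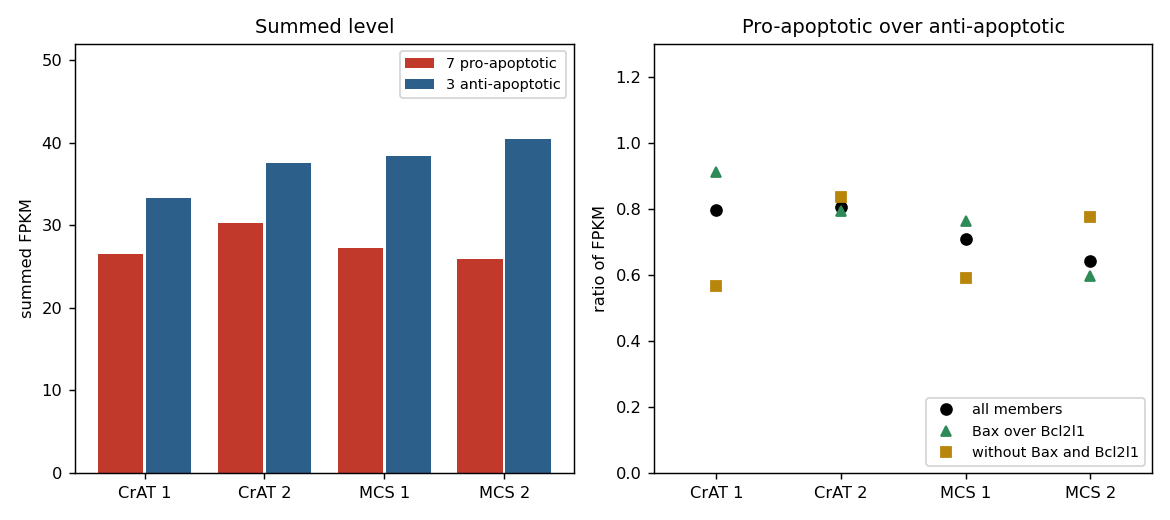
Left, summed FPKM of the 7 pro-apoptotic and 3 anti-apoptotic members in each library. Right, the ratio of these sums, the ratio of Bax to Bcl2l1, and the ratio without both genes. The ratio over all members is 0.797 and 0.807 in CrAT and 0.710 and 0.642 in MCS, and without Bax and Bcl2l1 the groups overlap.

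Some members differed between the replicates in the same direction in both groups. In both groups 5 of 10 members were higher in replicate 2 than in replicate 1, against 32.6% of genes tested, and 2 of 10 were lower (Bcl2 and Mcl1), against 32.7%. Bid and Bcl2l1 were among those higher, with Bcl2l1 1.19-fold and 1.13-fold above in CrAT and MCS. Rod markers were lower in replicate 2 of both groups, at 22784 CPM in CrAT and 24554 CPM in MCS against 42991 and 41653 CPM in replicate 1. The sums of amacrine and of ganglion markers were higher, although Isl1 of the ganglion list was lower in both groups. Rbpms of that list was lower in replicate 2 of CrAT only, and Pax6 of the amacrine list in replicate 2 of MCS only. The part of these marker differences in the members' levels was not tested.

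**Figure D4:**
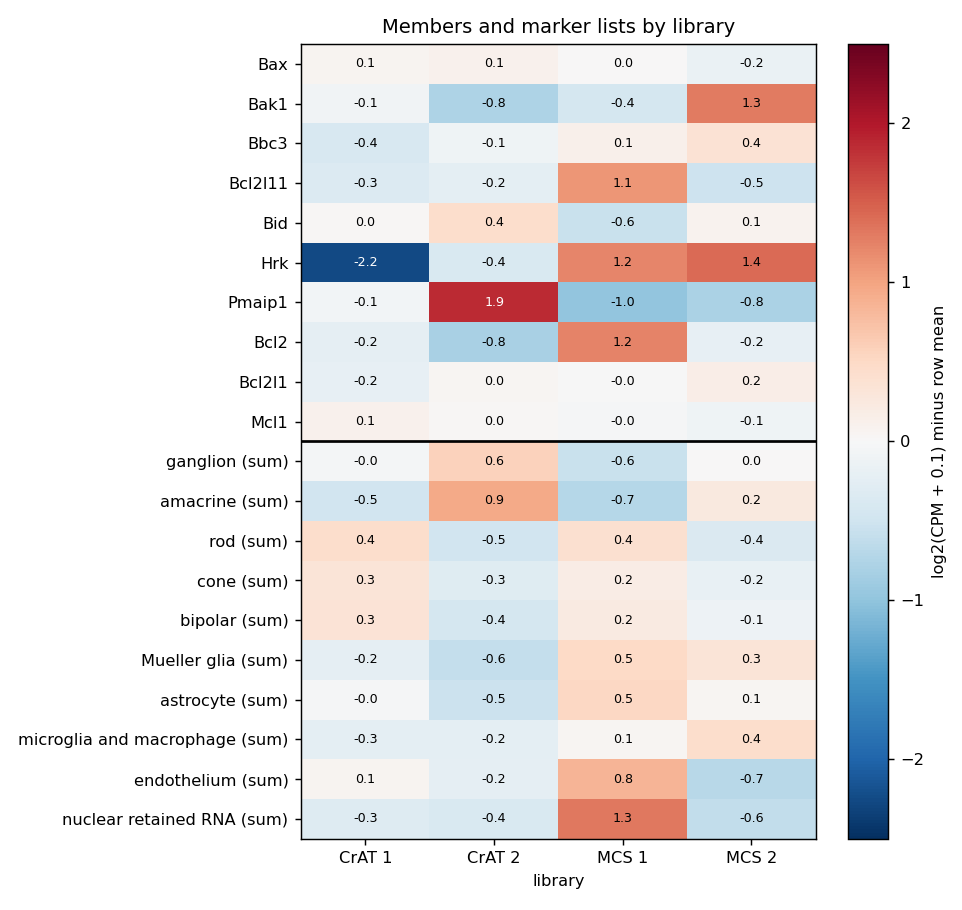
Log2 of CPM plus 0.1, less the row's mean over the 4 libraries, for the 10 members (above the line) and for summed marker lists of retinal cell types and nuclear retained RNA (below). Red is above and blue below the mean. Bcl2l11, Bcl2 and nuclear retained RNA are highest in MCS replicate 1, and the Mueller glia sum lies lower in both CrAT libraries.

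Beyond the 10 members, 60 other genes of the pathway were examined, of which 53 were tested, 23 with a positive and 30 with a negative log2 fold change and a median of -0.10. None passed the threshold in edgeR (adjusted p = 1 throughout). The groups did not overlap for 17 of the 53, 7 with CrAT above and 10 below, against 31.6% of all genes tested. Within the family, 7 of 8 further pro-apoptotic genes were tested, 2 positive and 5 negative. Bmf, a BH3-only gene, was 2.82 ± 0.0969 CPM with CrAT against 4.80 ± 1.46 CPM with MCS (SD over n = 2 each), with log2 fold change -0.76 (SE 0.47). Bnip3, a hypoxia-induced gene that marks mitochondria for removal, was 449 ± 64.1 CPM against 327 ± 42.1 CPM, and its log2 fold change was 0.46 (SE 0.30). For Bad, a BH3-only gene held in check by growth factor signals, it was -0.24 (SE 0.42). Of 5 further anti-apoptotic genes only Bcl2l2 was tested, which encodes BCL-w, a survival protein of neurons. It was 12.9 and 13.9 CPM with CrAT, 15.2 and 25.3 CPM with MCS, with the CrAT values below both MCS values and a log2 fold change of -0.60 (SE 0.40). Bcl2a1a, Bcl2a1b, Bcl2a1d and Bcl2l10 had at most 17 counts in a library.

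Downstream of the membrane, genes of cytochrome c release and of caspases showed no common direction. All 3 voltage-dependent anion channels, which sit in the outer membrane and bind family members, were positive, with log2 fold changes of 0.37 (SE 0.35) for Vdac3, 0.26 (SE 0.30) for Vdac2 and 0.12 (SE 0.41) for Vdac1. Of 9 apoptosome and caspase genes 3 were positive and 6 negative, with a median of -0.078. Cycs, the cytochrome c that BAX pores release, was 208 and 174 CPM with CrAT, 125 and 162 CPM with MCS, a log2 fold change of 0.41 (SE 0.30), and both CrAT libraries lay above. The executioner caspase Casp6 had -0.74 (SE 0.44) and the initiator Casp9 -0.29 (SE 0.32). Caspase inhibitors split evenly, 2 positive and 2 negative among 4 tested. Birc6, a giant ubiquitin ligase that blocks caspases, was 29.4 ± 2.35 CPM with CrAT against 43.2 ± 4.11 CPM with MCS (SD over n = 2 each), with log2 fold change -0.55 (SE 0.30). Xiap had -0.57 (SE 0.45) and Birc2 0.50 (SE 0.42).

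In the death receptor arm, which reaches mitochondria through Bid, 4 genes were positive and 4 negative. Tnfrsf1a, a receptor of tumour necrosis factor, was 70.6 and 39.9 CPM with CrAT, 116.6 and 74.4 CPM with MCS, with both CrAT libraries below and a log2 fold change of -0.79 (SE 0.40). The death receptor Fas had 0.72 (SE 0.64) and Tradd, an adaptor of the tumour necrosis factor receptor, -0.37 (SE 0.43).

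Among 8 transcription factors that act on BH3-only genes 7 were tested, 2 positive and 5 negative, with a median of -0.42. The 2 genes of the 53 with an unadjusted p under 0.05 were both here and both negative. Over all genes tested the share was 4.15% in either direction and 2.87% with CrAT lower. Foxo3, which acts on Bcl2l11 and Bbc3, was 11.8 and 15.7 CPM with CrAT, 23.8 and 53.1 CPM with MCS, a log2 fold change of -1.48 (SE 0.47, edgeR, unadjusted p = 0.0191, adjusted p = 1). Jun was 284 and 247 CPM with CrAT, 756 and 346 CPM with MCS, a log2 fold change of -1.06 (SE 0.43, edgeR, unadjusted p = 0.0486, adjusted p = 1). For both factors the CrAT libraries were the lower ones. Trp53 was 26.0 and 23.6 CPM with CrAT, 23.5 and 46.5 CPM with MCS, with overlap and a log2 fold change of -0.50 (SE 0.41).

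The kinases upstream of JUN numbered 3 positive and 6 negative among 9. Mapk10, the JNK3 of neurons, was 131 and 142 CPM with CrAT, 85.6 and 102 CPM with MCS, a log2 fold change of 0.54 (SE 0.28). Map2k7 had -0.39 (SE 0.34), and Map3k12, the kinase DLK that starts the response to axon injury, -0.34 (SE 0.31). Of 5 genes that set the stability of the MCL1 protein 4 were positive. Btrc, a subunit of a ubiquitin ligase, was 126 ± 1.25 CPM with CrAT against 80.2 ± 16.1 CPM with MCS (SD over n = 2 each), with log2 fold change 0.65 (SE 0.29), while Huwe1, the ligase also called MULE, had -0.46 (SE 0.28). Fbxw7 ranged from 27.2 CPM in MCS replicate 1 to 176 CPM in CrAT replicate 2 and was higher in replicate 2 of both groups, with a log2 fold change of 0.97 (SE 0.71).

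**Figure D5:**
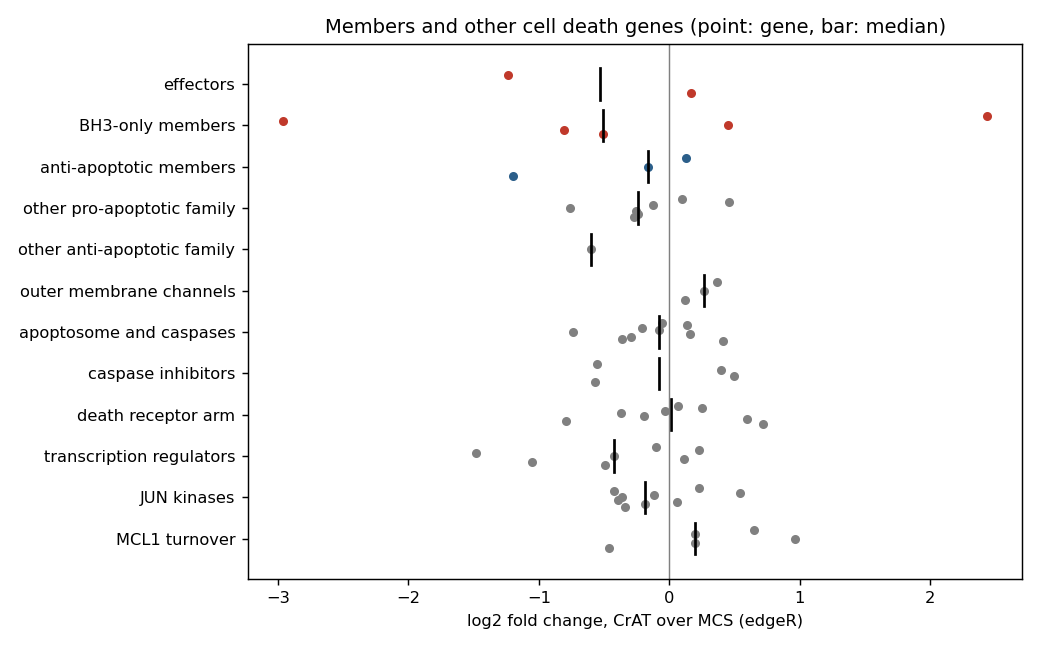
Log2 fold change, CrAT over MCS, of every tested member (red pro-apoptotic, blue anti-apoptotic) and of 53 other cell death genes (grey), by list, with each list's median as a bar. Hrk at -2.96 and Pmaip1 at 2.44 are the farthest from 0, and no point passed the test.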

How the data were processed

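Per the labels' protocols, total RNA went into SMART-seq cDNA, a low-input method. STAR 2.7.2b, GRCm38.p6 and mm10 are listed in the submitters' processing notes, and settings of the counter are not. The authors deposited a table of estimated counts per gene, rounded to whole numbers (41.8% to 43.2% of nonzero values, rebuilt from FPKM, missed a whole number by over 0.02), and a table of FPKM. Whole read counts had been assumed, and edgeR was used as planned. Coordinates carry no build name. Start and end matched those of a GRCm38 annotation in 1402 of 51898 shared identifiers and in 0 of 10 members, and no position was converted. Each table held columns of other samples, 4 in all, which were not used.

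Groups and replicate numbers were taken from the titles. Genes were filtered with edgeR 4.0.16's filterByExpr (minimum count 10), scaled by TMM and tested by quasi-likelihood F test with Benjamini-Hochberg adjustment over 19638 genes at 0.05, in R 4.3.3. SE is the log2 fold change over the root of F. Levels of single members were ranked in FPKM only, and marker lists were summed in CPM. Members and lists were chosen with earlier results of these data known, so no list was tested. The rule for names took every member and, of each other list, the 3 genes with the smallest p. The name Ddit3 had a second row, and the longer gene was used. Alternatives used DESeq2 1.42.0 and limma 3.58.1. On simulated counts for 18958 genes of this comparison edgeR recovered 2% of 50 genes changed 2-fold, 56% at 4-fold and 94% at 16-fold, with 7 false calls. Only genes with a mean above 1 CPM were given a change. Counts were drawn independently for each library, with a spread set by a gene's level rather than gene by gene. Recovery in the real libraries may therefore be lower.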

Additional observations from a re-analysis of the deposited data

How the results depend on the processing

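No member passed an adjusted p of 0.05 in any alternative. Of 98 values of single members, 2 changed sign: Bak1 to 0.074 without MCS replicate 2 (range -1.90 to 0.074 with 1 library left out) and Bcl2l11 to 0.22 without MCS replicate 1 (range -1.39 to 0.22). The smallest adjusted p of a member was 0.434, for Hrk with the replicate number as a block. Members with an unadjusted p under 0.05 in edgeR numbered 1 in the reported fit, 3 with the block (Hrk, Bcl2 and Pmaip1), 3 with no filter (the same genes) and 1 (Hrk) with the stricter filter. Over all genes, edgeR called 0 (815 at an unadjusted p under 0.05), edgeR with no filter on low counts called 2 and DESeq2 called 49. The median of the pro-apoptotic members, -0.51, was -0.56 with library totals only and ranged from -0.65 to 0.16 when 1 library was left out, and was -0.51 with the replicate block. The median of the anti-apoptotic members ranged from -0.27 to -0.040 with 1 library left out. The log2 ratio between groups of pro over anti levels, 0.25, was 0.038 without the most abundant member of each class and ranged from 0.18 to 0.32 with 1 library left out. In Hrk without CrAT replicate 2 the fitted value has no meaning, since the remaining CrAT library held 0 counts. A stricter filter of 1 CPM dropped Bak1 and Pmaip1. Where 1 library was left in a group, its spread was taken to be like that of the other group. Replicates of the same number share only a number in the labels. Their deviations correlated across genes at 0.39, and with the block 0 genes passed and 1922 had an unadjusted p under 0.05. Bak1, Hrk and Pmaip1 rest on at most 63 counts in a library. In the simulation only 2% of 2-fold changes were recovered, all planted in genes with a mean above 1 CPM. The means of these members over all libraries lie below that, so the simulation does not give their recovery.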
